A study of Homo sapiens with 8 samples.

Results

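The genes described here are 45 interferon-stimulated and innate sensing genes, taken by name from the 60617 gene identifiers of a count table of human HEK293T cells. All 45 symbols matched an identifier. The list was set by gene name and not by measured level, and it was chosen with earlier results of these data known. In at least 1 of the 4 groups, 27 of the 45 had a mean above 1 CPM (read counts scaled to a common library size). Another 5, SAMD9L, IFIT2, IFIT3, IRF9 and MX1, stayed at or below 1 CPM but had enough counts to be tested. The remaining 13 were not tested.

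HEK293T is a human embryonic kidney line that carries SV40 large T antigen. Each of the sgKDM5C, sgKDM6A and sgKMT2B groups is a CRISPR knockout of HEK293T, targeted with a guide against the gene in its label, and the WT group is the unedited line. KDM5C removes methyl groups from lysine 4 of histone H3, KDM6A removes them from lysine 27, and KMT2B adds them to lysine 4. Every group had 2 libraries, and the labels name no treatment. The labels do not state whether a knockout is a single clone or a pool of edited cells, where its guide cuts, or whether replicates came from separate cultures. Tests here therefore reflect the spread of these libraries alone, and that spread may be technical.

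Cells sense foreign or misplaced nucleic acid through receptors such as cGAS, whose product activates STING1 on the endoplasmic reticulum, and the helicase MDA5, encoded by IFIH1, which signals through MAVS. Both routes activate the kinase TBK1 and the transcription factor IRF3, which induce interferon beta. Secreted interferon binds its receptor, and the JAK kinases then assemble a complex that includes STAT2 and IRF9 and binds the interferon-stimulated response element of many target genes. The products of those genes block virus entry (IFITM proteins), bind viral RNA (IFIT proteins), degrade RNA (OAS proteins through RNase L) or tag proteins with the ubiquitin-like ISG15. HEK293T cells are widely used as a line with little endogenous cGAS or STING. In bulk RNA, fewer expressing cells and less RNA per cell cannot be told apart.

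Library totals ran from 15868353 counts in WT replicate 2 to 27591724 in sgKDM6A replicate 2, and the other 6 libraries lay between these values. Each target had its lowest level in the knockout named for it. KDM5C averaged 321 ± 13.4 CPM in sgKDM5C, 383 ± 5.54 in sgKDM6A, 393 ± 3.70 in sgKMT2B and 456 ± 21.6 in WT (SD, n = 2 each). KDM6A averaged 51.9 ± 2.64, 10.9 ± 0.845, 61.3 ± 6.34 and 57.7 ± 4.93 CPM in that order. KMT2B averaged 120 ± 10.5, 124 ± 0.968, 69.3 ± 8.86 and 141 ± 6.25 CPM. KDM5C and KMT2B thus lay below WT in every knockout. Outside its own knockout, KDM5C was called lower than WT in sgKDM6A (adjusted p = 0.0359 in edgeR's quasi-likelihood fit) but not in sgKMT2B (0.0667). Of 8 kidney epithelial markers, 5 were above 1 CPM in a group and PAX8 (4 counts over all libraries) and CDH16 (0 counts) were absent. PTPRC, the common leukocyte marker, had 2 counts over all libraries. The summed kidney epithelial markers lay at 161 to 163 CPM in sgKDM5C, 81.7 to 85.7 in sgKDM6A, 325 to 349 in sgKMT2B and 191 to 193 in WT. The summed endothelial and fibroblast markers lay at 31.6 to 34.2 CPM in sgKDM5C, 23.8 to 25.5 in sgKDM6A, 82.4 to 95.9 in sgKMT2B and 55.3 to 56.8 in WT. All 9 of the list had a count, but the endothelial markers PECAM1 and CDH5 had only 10 and 7 over all libraries. The sums were mostly collagen, with highest group means of 52.4 CPM for COL1A1 and 43.2 for COL3A1. No other gene of the list exceeded 1.67 CPM in a group. Of the 5 tested kidney epithelial markers, 0 were called higher and 5 lower in sgKDM6A, and 1 higher and 3 lower in sgKMT2B, with a median log2 change of -0.63 in sgKMT2B. The sgKMT2B sum was mostly KRT8, a keratin, with 247 and 265 CPM in sgKMT2B and 59.9 and 61.3 CPM in WT. Of 7 tested endothelial and fibroblast markers, 0 were higher and 4 lower in sgKDM6A, and 3 higher and 2 lower in sgKMT2B. The part of these markers in the results below was not tested.

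The interferon genes themselves were almost silent. Of 21 type I, II and III interferon genes, 3 had any count, with 5 counts in total over the 8 libraries, and IFNB1, the interferon beta gene, had 0. None could be tested.

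**Figure D1:**
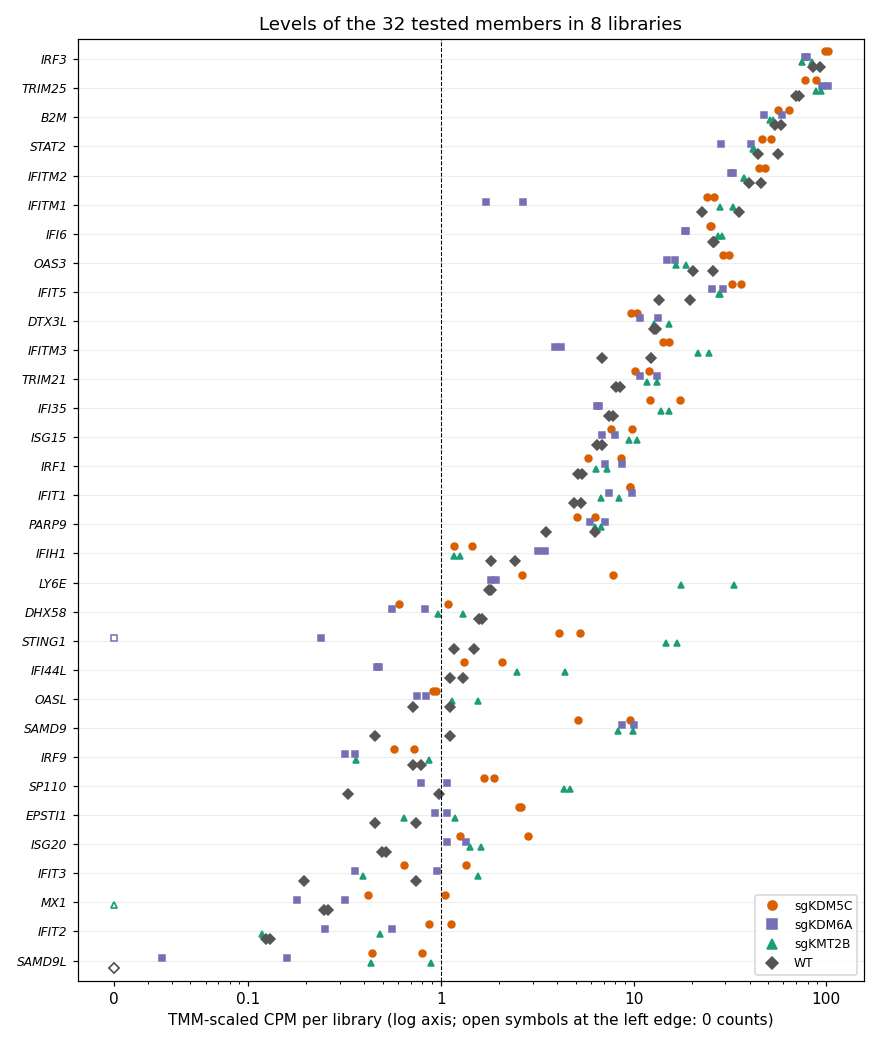
Level of the 32 tested genes in each of the 8 libraries, in TMM-scaled CPM on a log axis, with 1 point per library and values of 0 drawn at the left edge. The dashed line marks 1 CPM. STING1 and IFITM1 show sgKDM6A points far left of the others, and SAMD9 shows WT points left of every knockout point.

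In sgKDM5C cells, 11 of the 45 genes rose and 0 fell against WT. The 11 were SAMD9, SAMD9L, IFIT1, IFIT2, IFIT5, STING1, LY6E, IFI35, EPSTI1, ISG20 and SP110, of which 9 changed by at least 2-fold. SAMD9L passed the low-count filter only through sgKDM5C and sgKMT2B, the groups where it was called higher. Over all genes tested, 22.6% were called in this comparison, 11.1% higher and 11.5% lower. The share of called members among the 32 tested was 34.4% higher and 0% lower, and their median log2 change was 0.44, against 0.022 over all genes. At an unadjusted p under 0.05 in edgeR's quasi-likelihood fit, 1 tested member was lower, and DESeq2 also called 0 lower. Without WT replicate 1 the count of 11 fell to 6, and without sgKDM5C replicate 1 to 7.

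In sgKDM6A cells, 5 of the 45 rose and 8 fell against WT. SAMD9, IFIT1, IFIT5, TRIM21 and TRIM25 were higher. STING1, STAT2, OAS3, IFI6, IFI44L, IFITM1, IFITM2 and IFITM3 were lower. These are 15.6% higher and 25% lower of the tested members, beside a background of 27.2% called among all genes, 12.6% higher and 14.6% lower, and the members' median log2 change was 0.013, against 0.0058 over all genes. The 5 increases became 3 without WT replicate 1 or sgKDM6A replicate 1. The 8 decreases became 3 without sgKDM6A replicate 1, and 5 without sgKDM6A replicate 2, without WT replicate 2 or in a fit of these groups alone.

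In sgKMT2B cells, 13 of the 45 rose and 1 fell against WT. SAMD9, SAMD9L, IFIT5, STING1, LY6E, IFI35, ISG15, ISG20, IFI44L, IFITM3, TRIM21, TRIM25 and SP110 were higher and MX1 was lower. Here too, SAMD9L could be tested only through the groups where it was high. The background was 28.1% of all genes called, 13.7% higher and 14.5% lower, against 40.6% higher and 3.12% lower among the tested members. Their median log2 change was 0.55, against 0.0010 over all genes. The 3 comparisons share the WT libraries, so their counts are not independent of each other.

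**Figure D2:**
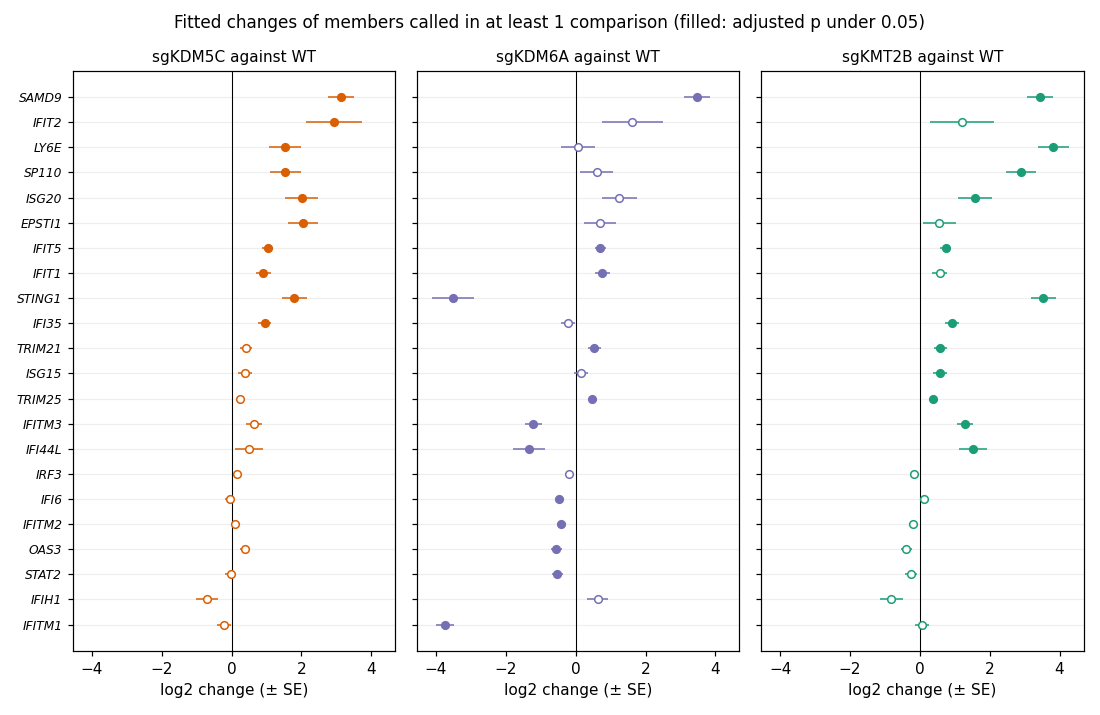
Log2 change of 22 genes called in at least 1 of the 6 comparisons, for each knockout over WT, with bars of 1 SE from the quasi-likelihood fit and filled symbols where the adjusted p was under 0.05. SAMD9L and MX1 are left out because a group had 0 counts. Most sgKDM5C and sgKMT2B points lie right of 0, whereas STING1, IFITM1 and IFITM3 lie left of 0 in sgKDM6A.

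Among the sensors and adaptors, STING1, the adaptor that passes the cGAS signal to TBK1, moved in opposite directions between knockouts. The gene lies on the minus strand of chromosome 5 at 139475534 to 139482935 (GRCh38). It had 5.28 and 4.09 CPM in sgKDM5C, 0.238 and 0 CPM in sgKDM6A, 14.7 and 16.8 CPM in sgKMT2B, and 1.49 and 1.17 CPM in WT. The sgKDM6A libraries lay below WT and the other knockouts above it, with no overlap between any of the 4 groups. The log2 change over WT was 1.79 ± 0.36 in sgKDM5C (adjusted p = 0.0039), -3.52 ± 0.61 in sgKDM6A (adjusted p = 0.00104) and 3.54 ± 0.36 in sgKMT2B (adjusted p = 1.5e-05), where the error is the SE. The sgKDM6A libraries held 6 and 0 counts, so the size of that decrease is uncertain, and it ranged from -8.05 without sgKDM6A replicate 1 to -2.48 over the alternatives. All 3 calls held in each of the 15 alternative settings run. The 59 expressed genes within 5 Mb of STING1 had median log2 changes of 0.036 for sgKDM5C, 0.0063 for sgKDM6A and -0.0032 for sgKMT2B.

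No change of the RNA helicase genes IFIH1 and DHX58 passed the test against WT. CGAS, which makes the second messenger that activates STING1, was one of the 13 untested genes. IFIH1, encoding the RNA sensor MDA5, had 1.46 and 1.17 CPM in sgKDM5C, 3.49 and 3.18 in sgKDM6A, 1.17 and 1.26 in sgKMT2B, and 2.44 and 1.82 in WT. The sgKDM6A libraries lay above WT and the others below it, but no change passed the test (adjusted p = 0.135 in sgKDM5C, 0.143 in sgKDM6A and 0.0777 in sgKMT2B). DHX58, encoding the RNA-binding helicase LGP2, had 1.09 and 0.605 CPM in sgKDM5C, 0.555 and 0.822 in sgKDM6A, 0.964 and 1.3 in sgKMT2B, and 1.57 and 1.62 in WT. Every knockout library lay below both WT libraries, with log2 values of -0.90 ± 0.44, -1.20 ± 0.45 and -0.49 ± 0.44 in that order, and none was called (adjusted p = 0.162, 0.0653 and 0.434).

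TRIM25, a ubiquitin ligase that acts with the RIG-I pathway, had 88.4 and 77.6 CPM in sgKDM5C, 102 and 94.9 in sgKDM6A, 94.4 and 88.6 in sgKMT2B, and 69.4 and 72 in WT. All knockout libraries lay above both WT libraries. The log2 change was 0.48 ± 0.10 in sgKDM6A (adjusted p = 0.00423), 0.37 ± 0.10 in sgKMT2B (adjusted p = 0.0161) and 0.23 ± 0.10 in sgKDM5C, which did not pass (adjusted p = 0.123). The sgKMT2B call was lost without sgKMT2B replicate 1 (adjusted p = 0.131). TRIM21, a cytosolic antibody receptor and ubiquitin ligase, had 12 and 10.2 CPM in sgKDM5C, 13.3 and 10.8 in sgKDM6A, 13.3 and 11.7 in sgKMT2B, and 8.51 and 8.12 in WT. Its increases of 0.53 ± 0.18 in sgKDM6A (adjusted p = 0.0405) and 0.59 ± 0.18 in sgKMT2B (adjusted p = 0.0251) were close to the threshold. The sgKMT2B call was lost without any 1 of the sgKMT2B and WT libraries (adjusted p from 0.0501 to 0.167), and the sgKDM6A call without WT replicate 1 (0.0828), WT replicate 2 (0.13), sgKDM6A replicate 1 (0.274) or a library of sgKMT2B (0.0545 and 0.0544), in a fit of the 2 groups alone (0.0719) and with no filter on low counts (0.052).

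Among the transcription factors of the pathway, STAT2 was called lower in sgKDM6A and no other factor was called against WT. STAT2, a subunit of the complex that interferon signalling assembles, had 46.5 and 51.9 CPM in sgKDM5C, 28.5 and 40.7 in sgKDM6A, 42.2 and 41.9 in sgKMT2B, and 44.3 and 55.9 in WT. Both sgKDM6A libraries were below both WT libraries, with a log2 change of -0.53 ± 0.16 (adjusted p = 0.0276). This call was lost without sgKDM6A replicate 1 (-0.29, adjusted p = 0.272), without WT replicate 2 (-0.35, adjusted p = 0.198) and in a fit of the 2 groups alone (adjusted p = 0.0528). IRF3, the factor that TBK1 phosphorylates, had 102 and 98.8 CPM in sgKDM5C, 77.3 and 79.5 in sgKDM6A, 75.2 and 84.4 in sgKMT2B, and 93.3 and 85 in WT, with no call against WT. IRF1, a factor that interferon gamma induces, had 8.63 and 5.83 CPM in sgKDM5C, 8.72 and 7.15 in sgKDM6A, 6.35 and 7.25 in sgKMT2B, and 5.37 and 5.13 in WT. All knockout values of IRF1 were above WT, but none of the changes passed the test (adjusted p = 0.169, 0.072 and 0.257). IRF9, the DNA-binding subunit of the STAT complex, lay between 0.317 and 0.867 CPM over the 8 libraries. Its sgKDM6A value of -1.14 ± 0.60 was not called (adjusted p = 0.178), and IRF7, the amplifier of interferon induction, was untested.

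SAMD9 and its neighbour SAMD9L encode interferon-inducible proteins that restrict poxviruses and lie side by side on the minus strand of chromosome 7, SAMD9 at 93099513 to 93118023 and SAMD9L at 93130055 to 93148369. SAMD9 had 5.17 and 9.61 CPM in sgKDM5C, 10.1 and 8.72 in sgKDM6A, 9.96 and 8.28 in sgKMT2B, and 1.12 and 0.455 in WT. Every knockout library was above both WT libraries. The log2 change was 3.13 ± 0.38 in sgKDM5C (adjusted p = 0.000153), 3.48 ± 0.37 in sgKDM6A (adjusted p = 3.29e-05) and 3.44 ± 0.37 in sgKMT2B (adjusted p = 3e-05), or 8.77-fold, 11.2-fold and 10.8-fold. These calls held in all 15 alternatives, and no difference between knockouts passed (-0.35, -0.30 and 0.05 for sgKDM5C over sgKDM6A, sgKDM5C over sgKMT2B and sgKDM6A over sgKMT2B, each with an SE of 0.29 and adjusted p from 0.443 to 0.932). The 28 expressed genes within 5 Mb of SAMD9 had median log2 changes of 0.32 for sgKDM5C, 0.36 for sgKDM6A and 0.22 for sgKMT2B, above the medians over all genes, and their part in the result was not tested.

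SAMD9L had 0 counts in both WT libraries. It had 0.437 and 0.795 CPM in sgKDM5C, against 0.159 and 0.0357 CPM in sgKDM6A and 0.884 and 0.434 CPM in sgKMT2B, from 33, 5 and 33 counts per group. Set against a floor of 3 counts over the WT group, it was at least 8.08-fold higher in sgKDM5C (adjusted p = 0.00836) and at least 8.66-fold higher in sgKMT2B (adjusted p = 0.0056). The sgKDM6A change did not pass (adjusted p = 0.152). Only its sgKDM5C and sgKMT2B libraries took SAMD9L past the low-count filter, so its calls as higher there are not independent of that filter. Leaving out WT replicate 1 took the sgKDM5C call to an adjusted p of 0.0508.

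The IFIT genes form a cluster on chromosome 10, and their proteins bind viral RNA ends. IFIT5 had 36.1 and 32.4 CPM in sgKDM5C, 29 and 25.4 in sgKDM6A, 28.1 and 27.7 in sgKMT2B, and 19.6 and 13.6 in WT. All knockout values lay above WT, with log2 changes of 1.03 ± 0.16 (adjusted p = 0.000949), 0.70 ± 0.16 (adjusted p = 0.00695) and 0.74 ± 0.16 (adjusted p = 0.00485) in that order. In sgKDM6A it was no longer called without WT replicate 2 (0.48, adjusted p = 0.053) or without sgKDM6A replicate 1 (0.61, adjusted p = 0.061). IFIT1 had 9.54 and 9.61 CPM in sgKDM5C, 7.49 and 9.83 in sgKDM6A, 8.44 and 6.74 in sgKMT2B, and 4.92 and 5.33 in WT. Again each knockout library exceeded WT. The increase passed in sgKDM5C (0.91 ± 0.21, adjusted p = 0.00775) and in sgKDM6A (0.76 ± 0.21, adjusted p = 0.0159; lost without WT replicate 1, 0.0691, or sgKDM6A replicate 2, 0.135), and missed the threshold in sgKMT2B (0.57 ± 0.21, adjusted p = 0.0579).

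IFIT2 and IFIT3 were low. IFIT2 had 1.13 and 0.87 CPM in sgKDM5C, 0.555 and 0.25 in sgKDM6A, 0.482 and 0.118 in sgKMT2B, and 0.124 and 0.13 in WT, where 5 counts were found in all. The sgKDM5C increase of 2.93 ± 0.80 passed (adjusted p = 0.0188) but was lost without sgKDM5C replicate 1 (0.104), WT replicate 1 (0.098) or WT replicate 2 (0.0862). IFIT3 ranged from 0.195 to 1.57 CPM over the 8 libraries, the groups overlapped and no change was called. The 37 expressed genes within 5 Mb of IFIT5 had median log2 changes of 0.12 for sgKDM5C, 0.19 for sgKDM6A and -0.34 for sgKMT2B.

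The IFITM proteins sit in cell membranes and hinder the fusion of enveloped viruses. Their genes lie together on chromosome 11, where IFITM1 spans 313506 to 315272 and IFITM3 spans 319669 to 327537. IFITM1 had 24 and 26.3 CPM in sgKDM5C, 2.66 and 1.72 in sgKDM6A, 28.1 and 32.9 in sgKMT2B, and 35.2 and 22.7 in WT. Only the sgKDM6A libraries stood apart, with a log2 change of -3.74 ± 0.25, or 13.4-fold lower than WT (adjusted p = 4.53e-07), whereas the changes of -0.21 in sgKDM5C and 0.07 in sgKMT2B were not called. IFITM3 had 14.2 and 15.2 CPM in sgKDM5C, 3.92 and 4.18 in sgKDM6A, 21.6 and 24.7 in sgKMT2B, and 6.86 and 12.3 in WT. It fell in sgKDM6A (-1.21 ± 0.24, adjusted p = 0.00243) and rose in sgKMT2B (1.30 ± 0.22, adjusted p = 0.000807), while the sgKDM5C value of 0.65 ± 0.22 missed the threshold (adjusted p = 0.0509).

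IFITM2 changed least of these 3 genes in sgKDM6A. It had 47.9 and 44.9 CPM in sgKDM5C, 32.9 and 31.9 in sgKDM6A, 37.6 and 37.6 in sgKMT2B, and 45.9 and 39.8 in WT. Its log2 change in sgKDM6A was -0.41 ± 0.12 (adjusted p = 0.0205), no longer called without WT replicate 1 (-0.30, adjusted p = 0.112), without either sgKDM6A library (0.0906 and 0.111), and in a fit of the 2 groups alone (0.0536). IFITM1 and IFITM2 share annotated exon sequence and the 3 genes are paralogs, so the split of reads among them is uncertain. The 48 expressed genes within 5 Mb of IFITM1 had a median log2 change of -0.21 in sgKDM6A, and its part in the result was not tested.

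**Figure D3:**
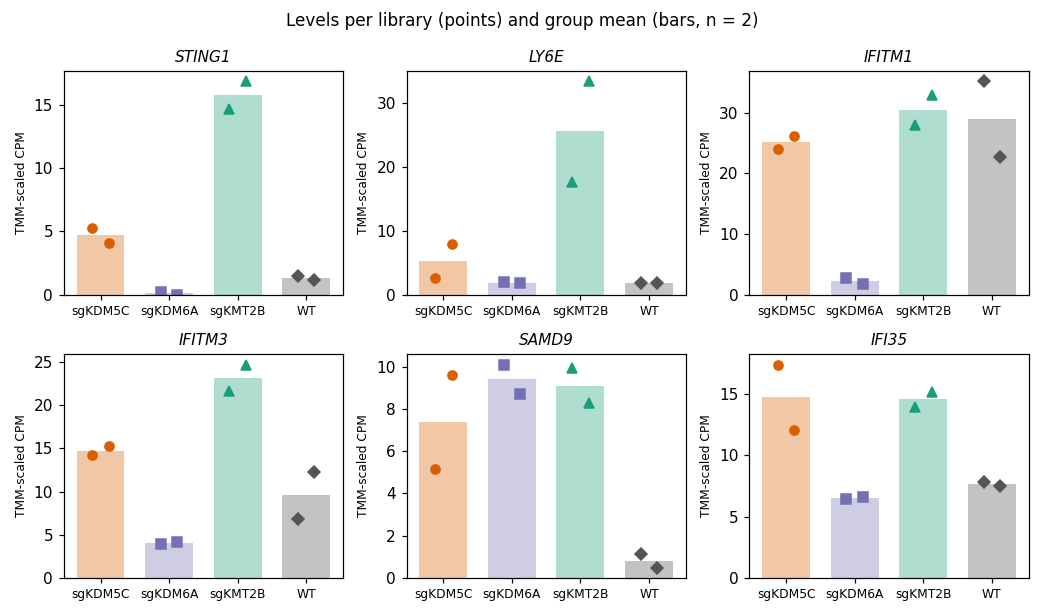
Levels of STING1, LY6E, IFITM1, IFITM3, SAMD9 and IFI35 in TMM-scaled CPM, with 1 point per library and a bar at each group mean (n = 2), from sgKDM5C on the left to WT on the right. STING1 and LY6E are highest in sgKMT2B, IFITM1 drops in sgKDM6A alone, and SAMD9 is low in WT alone.

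Promoters of 5 members that were called against WT are shown because the interferon-stimulated response element is the known binding site of the complex with STAT2 and IRF9. A window from 250 bases before to 50 bases after the start site was available from RefSeq (GRCh38.p14) for 34 of the 45 genes, without STING1 and LY6E. It was searched on both strands for GAAA, any 2 bases and GAAA again, or the reverse complement, TTTC, any 2 bases and TTTC. The motif was present in 24 of the 34 (70.6%), beside 1195 of 27305 genes in the whole table (4.38%), where a gene counts if any of its windows holds the motif. Among members with a window, the motif was present in 5 of 8 that rose in sgKDM5C, 4 of 5 that rose and 5 of 6 that fell in sgKDM6A, and 7 of 11 that rose in sgKMT2B. Over all tested members with a window it was present in 18 of 25 (72%).

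The 160 bases from 150 before to 10 after the start site are given 5′ to 3′ on the gene's strand, in lower case with each motif match in capitals. They span chr7:93117970-93118129 for SAMD9 (minus strand), chr7:93148376-93148535 for SAMD9L (minus), chr10:89414418-89414577 for IFIT5 (plus), chr11:313890-314049 for IFITM1 (plus) and chr11:320851-321010 for IFITM3 (minus). SAMD9 and SAMD9L are shown as neighbours that were both low in WT, IFIT5 as a gene that rose in all 3 knockouts, and IFITM1 and IFITM3 as genes that fell in sgKDM6A.
SAMD9: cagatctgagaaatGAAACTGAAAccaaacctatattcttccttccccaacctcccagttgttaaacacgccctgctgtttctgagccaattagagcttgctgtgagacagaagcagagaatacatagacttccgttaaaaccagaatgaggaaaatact
SAMD9L: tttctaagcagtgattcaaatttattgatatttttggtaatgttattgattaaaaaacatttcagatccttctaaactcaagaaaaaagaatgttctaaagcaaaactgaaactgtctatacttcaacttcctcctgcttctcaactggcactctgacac
IFIT5: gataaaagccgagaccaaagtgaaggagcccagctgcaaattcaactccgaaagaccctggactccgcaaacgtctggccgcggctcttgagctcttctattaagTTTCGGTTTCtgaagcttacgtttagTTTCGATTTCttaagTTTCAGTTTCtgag
IFITM1: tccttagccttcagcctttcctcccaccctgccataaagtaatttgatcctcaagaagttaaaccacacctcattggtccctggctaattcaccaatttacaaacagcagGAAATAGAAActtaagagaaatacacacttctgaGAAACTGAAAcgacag
IFITM3: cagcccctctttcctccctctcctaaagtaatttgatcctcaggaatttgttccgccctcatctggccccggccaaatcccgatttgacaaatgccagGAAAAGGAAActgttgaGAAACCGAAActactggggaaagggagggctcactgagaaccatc
SAMD9 has 1 match, starting 136 bases before the start site, and the SAMD9L stretch has no match to these letters. IFIT5 has 3 matches, starting 45, 19 and 4 bases before the start site. IFITM1 has 2, at 40 and 6 bases before, and IFITM3 has 2, at 52 and 35 bases before. The matches are a description of sequence and no site of binding was measured.

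LY6E, a membrane protein that restricts coronavirus entry, rose in sgKMT2B. It had 2.62 and 7.83 CPM in sgKDM5C, 1.94 and 1.82 in sgKDM6A, 17.7 and 33.3 in sgKMT2B, and 1.78 and 1.82 in WT. Both sgKMT2B libraries lay above all others, and the change was 3.83 ± 0.44, or 14.2-fold (adjusted p = 4.86e-05). Of the sgKDM5C libraries, replicate 2 was far above replicate 1. Its increase of 1.54 ± 0.45 (adjusted p = 0.027) fell to 0.53 without sgKDM5C replicate 2 (adjusted p = 0.385), and the call was also lost without WT replicate 1 (0.115), without WT replicate 2 (0.101) and with DESeq2 (0.0664). The 60 expressed genes within 5 Mb had a median log2 change of 0.27 in sgKMT2B, and its part in the result was not tested.

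IFI35, an interferon-induced leucine zipper protein, had 17.4 and 12.1 CPM in sgKDM5C, 6.46 and 6.61 in sgKDM6A, 13.9 and 15.2 in sgKMT2B, and 7.85 and 7.47 in WT. The sgKDM5C and sgKMT2B libraries lay above WT and sgKDM6A just below it. The change was 0.94 ± 0.19 in sgKDM5C (adjusted p = 0.00404, but 0.66 and 0.0618 without sgKDM5C replicate 1), 0.93 ± 0.19 in sgKMT2B (adjusted p = 0.00316) and -0.23 ± 0.20 in sgKDM6A (adjusted p = 0.415). SP110, a nuclear body protein, had 1.89 and 1.66 CPM in sgKDM5C, 1.07 and 0.786 in sgKDM6A, 4.38 and 4.69 in sgKMT2B, and 0.33 and 0.975 in WT. It rose by a log2 value of 2.89 ± 0.43 in sgKMT2B (adjusted p = 0.000295), with no overlap between sgKMT2B and any other group. The sgKDM5C increase of 1.54 ± 0.44 (adjusted p = 0.0237) was lost without WT replicate 1 (0.87, adjusted p = 0.186), without sgKDM5C replicate 1 (0.0956) and in a fit of the 2 groups alone (0.0509).

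EPSTI1, an interferon-responsive gene first described in epithelial and stromal co-culture, rose in sgKDM5C. It had 2.55 and 2.61 CPM in sgKDM5C, 1.07 and 0.929 in sgKDM6A, 0.643 and 1.18 in sgKMT2B, and 0.744 and 0.455 in WT. The sgKDM5C libraries stood above all others, with a log2 change of 2.05 ± 0.43 (adjusted p = 0.00493). The other changes over WT were 0.69 and 0.56 and were not called. ISG20, an exonuclease that degrades viral RNA, had 2.84 and 1.25 CPM in sgKDM5C, 1.35 and 1.07 in sgKDM6A, 1.61 and 1.42 in sgKMT2B, and 0.496 and 0.52 in WT. Every knockout library was above WT. The sgKDM5C increase was 2.01 ± 0.48 (adjusted p = 0.00975; 1.29 and 0.142 without sgKDM5C replicate 1, 0.0501 without WT replicate 1), the sgKMT2B increase was 1.57 ± 0.49 (adjusted p = 0.0291; 0.0626 to 0.117 without any 1 of the sgKMT2B and WT libraries), and the sgKDM6A value of 1.25 ± 0.50 was not called (adjusted p = 0.0791).

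ISG15, the ubiquitin-like modifier, had 9.76 and 7.64 CPM in sgKDM5C, 7.97 and 6.9 in sgKDM6A, 9.48 and 10.4 in sgKMT2B, and 6.49 and 6.82 in WT. All knockout values were above WT by small margins. Only the sgKMT2B change of 0.58 ± 0.19 passed (adjusted p = 0.0387), and it was lost without any 1 of the sgKMT2B and WT libraries (0.0895 to 0.173) and with all libraries thinned to the shallowest (0.0599).

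The OAS proteins make the messenger that activates RNase L. OAS3 had 31.2 and 29.2 CPM in sgKDM5C, 14.9 and 16.4 in sgKDM6A, 16.6 and 18.7 in sgKMT2B, and 20.4 and 25.9 in WT. The sgKDM5C libraries were above WT and the other knockouts below it, but only the sgKDM6A change of -0.56 ± 0.15 passed (adjusted p = 0.0156), but not without WT replicate 2 (-0.38, adjusted p = 0.127) or sgKDM6A replicate 1 (0.117). OASL, an OAS-like protein without that enzyme activity, had 0.947 and 0.908 CPM in sgKDM5C, 0.832 and 0.75 in sgKDM6A, 1.57 and 1.14 in sgKMT2B, and 1.12 and 0.715 in WT, and was not called.

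IFI6, a survival factor of the endoplasmic reticulum and mitochondria, fell in sgKDM6A. It had 25.2 and 24.9 CPM in sgKDM5C, 18.4 and 18.8 in sgKDM6A, 28.8 and 27.6 in sgKMT2B, and 26.1 and 25.8 in WT. The change in sgKDM6A was -0.48 ± 0.13 (adjusted p = 0.0123), lost without sgKDM6A replicate 1 (0.0859) or sgKDM6A replicate 2 (0.06). IFI44L had 1.31 and 2.08 CPM in sgKDM5C, 0.476 and 0.464 in sgKDM6A, 2.49 and 4.41 in sgKMT2B, and 1.12 and 1.3 in WT. Both sgKDM6A libraries lay below WT and both sgKMT2B libraries above it. The sgKMT2B increase was 1.52 ± 0.39 (adjusted p = 0.011; 0.0616 without WT replicate 1, 1.05 and 0.138 without sgKMT2B replicate 2). The sgKDM6A decrease was -1.34 ± 0.46 (adjusted p = 0.0449), lost without any 1 of the sgKDM6A and WT libraries (0.0783 to 0.142), with DESeq2 (0.0604) and in a fit of the 2 groups alone (0.0621).

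MX1, a dynamin-like GTPase that blocks influenza virus, had 1.06 and 0.416 CPM in sgKDM5C, 0.317 and 0.179 in sgKDM6A, 0 and 0 in sgKMT2B, and 0.248 and 0.26 in WT. These came from 40, 13, 0 and 10 counts per group. Set against a floor of 3 counts over the sgKMT2B group it was at least 4.23-fold lower in sgKMT2B than in WT (adjusted p = 0.0238), a call lost without any 1 of the sgKMT2B and WT libraries (0.0601 to 0.112).

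Several members above 1 CPM gave no call against WT. B2M, the light chain of MHC class I, had 63.8 and 56.1 CPM in sgKDM5C, 58.9 and 47.3 in sgKDM6A, 50.9 and 52.8 in sgKMT2B, and 58.1 and 54.5 in WT, with log2 changes of 0.09, -0.09 and -0.12 and an SE of 0.12 each. PARP9, which pairs with the ubiquitin ligase DTX3L, had 6.34 and 5.07 CPM in sgKDM5C, 7.1 and 5.93 in sgKDM6A, 6.79 and 6.31 in sgKMT2B, and 3.51 and 6.3 in WT. For B2M the sgKMT2B libraries lay just below WT and the other groups overlapped it, and for PARP9 the sgKMT2B libraries lay just above WT and the others overlapped it. DTX3L had 10.4 and 9.72 CPM in sgKDM5C, 13.4 and 10.8 in sgKDM6A, 15.3 and 12.7 in sgKMT2B, and 13.1 and 12.8 in WT. Its sgKDM5C libraries lay below WT, and no change was called. Per kilobase of annotated exon, the WT levels of IFI6 (30.0 CPM per kb), IFITM2 (27.8), IFITM1 (26.8) and IRF3 (23.5) led the list, ahead of B2M (9.26).

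The 13 untested genes were CGAS, IRF7, MX2, OAS1, OAS2, IFI27, IFI44, RSAD2, PARP14, SP100, TAP1, PSMB8 and PSMB9. None had more than 9 counts in any library, and their highest group mean was 0.319 CPM. TAP1 (3 counts over all libraries), PSMB8 (0) and PSMB9 (5), the peptide transporter and immunoproteasome genes, lie in the MHC region of chromosome 6. Between 29 and 34 Mb there, 35 of 182 protein-coding genes (19.2%) exceeded 1 CPM, against 12744 of 19740 elsewhere (64.6%). Genes that all cells use were also low there, with 6 to 24 counts per library for the tubulin gene TUBB and 0 to 7 for CSNK2B. The levels of TAP1, PSMB8 and PSMB9 can therefore not be read as low expression.

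The knockouts were also compared directly with each other. Between sgKDM5C and sgKDM6A, 13 members were higher in sgKDM5C and 1, IFIH1, was lower. These were 40.6% higher and 3.12% lower of the tested members, beside 19.8% of all genes called, 10.9% higher and 8.86% lower. STING1 differed by 5.31 ± 0.51 on the log2 scale (adjusted p = 1.18e-05), IFITM1 by 3.53 ± 0.24 (adjusted p = 5.2e-07), IFITM3 by 1.86 ± 0.23 (adjusted p = 9.89e-05), IFI35 by 1.17 ± 0.19 (adjusted p = 0.000781) and OAS3 by 0.95 ± 0.15 (adjusted p = 0.000645). These 5 calls held in every alternative run. The other 9 each missed the threshold in at least 1 alternative, and were SAMD9L, LY6E, EPSTI1, STAT2, IRF3, IFI6, IFI44L, IFITM2 and IFIH1. With 6 and 0 STING1 counts in the sgKDM6A libraries, the size of the STING1 difference is uncertain. It ranged from 4.27 to 9.85 over the alternatives. The count of 14 was 8 without sgKDM5C replicate 1, 6 without sgKDM5C replicate 2, 6 without sgKDM6A replicate 1 and 7 without sgKDM6A replicate 2.

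Between sgKDM5C and sgKMT2B, 4 members were higher in sgKDM5C (EPSTI1, IRF3, MX1 and OAS3) and 4 were lower (STING1, LY6E, IFITM3 and SP110). These were 12.5% higher and 12.5% lower of the tested members. Over all genes 22.1% were called, 11.6% higher and 10.5% lower, so the members' shares lay near those of all genes. OAS3 was higher by 0.77 ± 0.15 (adjusted p = 0.00225) and MX1 at least 12.4-fold higher (adjusted p = 0.00282). MX1 passed the low-count filter through sgKDM5C alone, so this call is not independent of that filter. STING1 differed by -1.75 ± 0.30 (adjusted p = 0.00108) and LY6E by -2.29 ± 0.38 (adjusted p = 0.000822). The OAS3, STING1 and LY6E calls held in all 15 alternatives, and the MX1 call in the 13 that gave it a value. Without 1 sgKDM5C library, replicate 1 or replicate 2, 4 of the 8 calls were left, and without either sgKMT2B library the count was 5.

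Between sgKDM6A and sgKMT2B, 9 members were lower in sgKDM6A and 2, MX1 and IFIH1, were higher. These were 6.25% higher and 28.1% lower of the tested members, beside 24.9% of all genes called, 12.4% higher and 12.5% lower. STING1 differed by -7.06 ± 0.48 (adjusted p = 2.87e-07), IFITM1 by -3.81 ± 0.24 (adjusted p = 1.59e-07), LY6E by -3.76 ± 0.43 (adjusted p = 2.72e-05), IFI44L by -2.86 ± 0.42 (adjusted p = 0.000254), IFITM3 by -2.51 ± 0.23 (adjusted p = 4.6e-06), SP110 by -2.29 ± 0.39 (adjusted p = 0.000684) and IFI35 by -1.16 ± 0.19 (adjusted p = 0.000579). IFI6 differed by -0.60 ± 0.12 (adjusted p = 0.00286) and IFIH1 by 1.45 ± 0.32 (adjusted p = 0.00401). These 9 calls held in every alternative, and those of SAMD9L and MX1 did not. Because the sgKDM6A libraries held 6 and 0 STING1 counts, the size of the STING1 difference is again uncertain. Over the alternatives it ranged from -11.6 to -6.02.

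**Figure D4:**
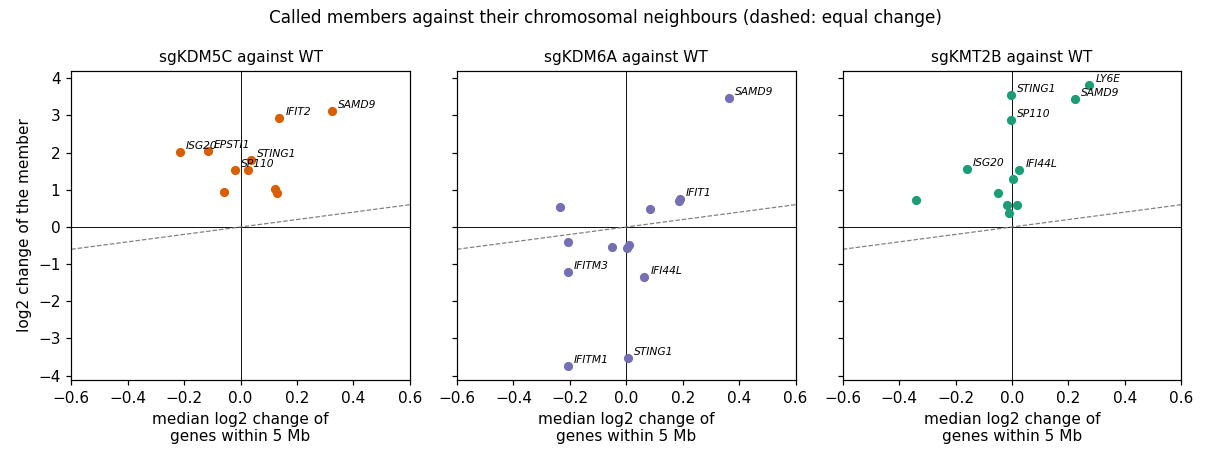
Log2 change over WT of each called gene (vertical axis) against the median log2 change of the expressed genes within 5 Mb of it (horizontal axis), for the 3 knockouts. SAMD9L and MX1 are left out because a group had 0 counts. SAMD9 lies at a horizontal value of 0.22 to 0.36, and STING1 lies near 0.

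Other genes of the pathway were read from 4 lists with no member in common with the 45. Calls of single genes in these lists were not checked in the alternative settings. Of 18 interferon receptor and JAK-STAT genes, all tested, 1 rose and 2 fell in sgKDM5C, 0 rose and 5 fell in sgKDM6A, and 2 rose and 4 fell in sgKMT2B. Called in either direction, these were 16.7%, 27.8% and 33.3% of the list in that order, beside 22.6%, 27.2% and 28.1% of all genes. USP18, which removes ISG15 and restrains the receptor, had a log2 change of -0.99 in sgKMT2B (adjusted p = 9.04e-05). JAK1, a receptor kinase, fell in sgKDM6A (-0.47, adjusted p = 0.00349) and sgKMT2B (-0.38, adjusted p = 0.0114). TYK2, its partner kinase, fell in sgKDM5C (-0.45, adjusted p = 0.00352) and sgKDM6A (-0.35, adjusted p = 0.0115) and rose in sgKMT2B (0.26, adjusted p = 0.0443).

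Of 19 tested nucleic acid sensing adaptors, kinases and effectors (22 listed), 6 rose and 0 fell in sgKDM5C, 3 rose and 1 fell in sgKDM6A, and 8 rose and 0 fell in sgKMT2B. These were 31.6%, 21.1% and 42.1% of the tested list, against the all-gene shares of 22.6%, 27.2% and 28.1%. TRIM56, a ubiquitin ligase that acts on the STING pathway, averaged 19.2 ± 1.11 CPM in sgKDM5C, 14.0 ± 0.151 in sgKDM6A, 5.37 ± 2.18 in sgKMT2B and 6.09 ± 0.153 in WT, and rose in sgKDM5C (1.66, adjusted p = 0.000336) and sgKDM6A (1.20, adjusted p = 0.00183). ZC3HAV1, an antiviral protein that binds CpG-rich RNA, averaged 55.8 ± 8.68 CPM in sgKDM5C, 57.1 ± 4.99 in sgKDM6A, 56.4 ± 8.27 in sgKMT2B and 29.9 ± 1.34 in WT (SD, n = 2 each), and rose in all 3 (0.90, 0.93 and 0.92, adjusted p = 0.00086, 0.000427 and 0.000415). RNASEH2C, a subunit of RNase H2, rose in sgKDM5C (0.54, adjusted p = 0.00532) and sgKMT2B (0.69, adjusted p = 0.000755).

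Among 26 tested genes of a list of 39 other interferon-stimulated genes, 4 rose and 4 fell in sgKDM5C, 1 rose and 8 fell in sgKDM6A, and 8 rose and 2 fell in sgKMT2B, or 30.8%, 34.6% and 38.5% of the tested list. The all-gene shares in that order were 22.6%, 27.2% and 28.1%. LGALS3BP, a secreted glycoprotein, averaged 275 ± 15.5 CPM in sgKDM5C, 31.4 ± 1.61 in sgKDM6A, 201 ± 10.1 in sgKMT2B and 209 ± 16.6 in WT. Its change was -2.74 in sgKDM6A (adjusted p = 1.86e-09) and 0.39 in sgKDM5C (adjusted p = 0.00991). BST2, the tether of budding virions, averaged 4.75 ± 0.134 CPM in sgKDM5C, 0.492 ± 0.0893 in sgKDM6A, 7.50 ± 0.602 in sgKMT2B and 8.70 ± 2.31 in WT, and fell in sgKDM6A (-4.13, adjusted p = 1.21e-06) and sgKDM5C (-0.86, adjusted p = 0.0181). UBE2L6, the conjugating enzyme for ISG15, fell in sgKDM6A (-1.40, adjusted p = 9.11e-06) and sgKMT2B (-0.37, adjusted p = 0.0385). Of 12 tested antigen presentation genes (16 listed), 1 rose and 3 fell in sgKDM5C, 2 rose and 4 fell in sgKDM6A, and 1 rose and 5 fell in sgKMT2B, or 33.3%, 50% and 50% of the tested list. They stand beside the same all-gene shares, and rest on only 12 genes. HLA-B, an MHC class I heavy chain, had a change of -0.85 in sgKDM6A (adjusted p = 4.61e-05) and -0.38 in sgKMT2B (adjusted p = 0.00858), and HLA-C of -0.55 (adjusted p = 0.00129) and -0.41 (adjusted p = 0.00767) in the same knockouts. CANX, the chaperone calnexin, fell in sgKDM5C (-0.35, adjusted p = 0.0101), sgKDM6A (-0.29, adjusted p = 0.0236) and sgKMT2B (-0.38, adjusted p = 0.00476). Since many genes of the MHC region had low counts, HLA levels in this table are uncertain.

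**Figure D5:**
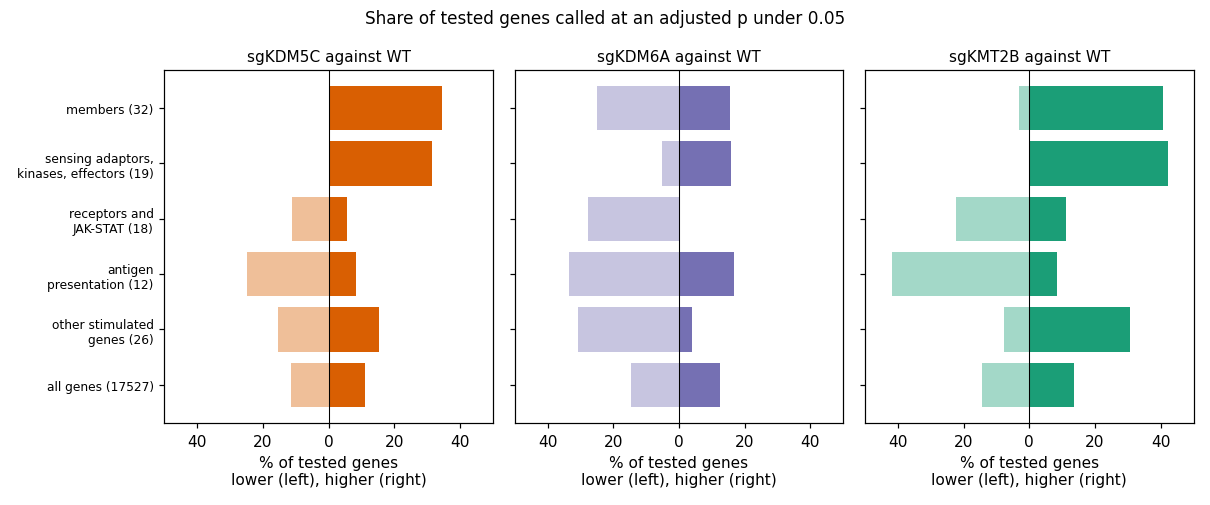
Percent of tested genes called higher (right of 0) and lower (left of 0) against WT at an adjusted p under 0.05, for the members, for the other lists and for all genes tested, in each knockout. The members show 34.4% higher and 0% lower in sgKDM5C, 15.6% higher and 25% lower in sgKDM6A, and 40.6% higher and 3.12% lower in sgKMT2B.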

How the data were processed

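Poly(A) RNA of HEK293T cells was sequenced on a NovaSeq instrument (per the labels' protocols). The authors deposited raw counts per gene identifier, made with STAR and HTSeq 0.11.2 on GRCh38, per the submitters' processing notes. The sources used here do not give the annotation or whether counting used strand, so reads of overlapping genes and near-identical paralogs are uncertain. Symbols came from a gene name table (60261 of 60617 identifiers matched), and coordinates from GENCODE v29 on GRCh38 (58542 matched).

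Counts were tested with edgeR 4.0.16 (R 4.3.3), with glmQLFit and glmQLFTest fitted to the 8 libraries as 4 groups, 4 residual degrees of freedom, TMM factors of 0.965 to 1.056, filterByExpr by group (17527 genes tested) and Benjamini-Hochberg adjustment over all of them. Calls needed an adjusted p under 0.05. CPM are TMM-scaled and log2 changes are fitted values. Their SE was derived from the test, as the absolute log2 change divided by the square root of the quasi-likelihood F. It is only a rough guide where a group holds few counts. A fold against a group at 0 is a bound against 3 counts over the group, which covers counting error only. Those 3 counts in 1 library equal 0.109 to 0.189 CPM, which limits what can be seen of low genes. Neighbours are genes within 5 Mb that averaged 5 CPM or more. Replicate libraries differed beyond sampling noise, so each counted once.

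The members, gene lists, tests and alternatives were chosen with earlier results of these data known. Members were named with all values where called in any comparison or where a group mean reached 1 CPM, and the other lists by their 3 smallest adjusted p-values. Alternatives were DESeq2 1.42.0 and its size factors, filters, a replicate block, only the groups compared, thinning, and leaving out each library. Some items are not reported here.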

Additional observations from a re-analysis of the deposited data

How the results depend on the processing

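Of 71 calls of members over the 6 comparisons, 34 held in all 15 alternatives, another 2 (SAMD9L in sgKMT2B against WT and MX1 in sgKDM5C against sgKMT2B) in the 13 that gave them a value, and 0 reversed. In leave-one-out fits, a group with 1 library is assumed to vary like the others. Their counts ran from 6 to 11 members higher in sgKDM5C than in WT, 3 to 6 higher and 3 to 8 lower in sgKDM6A, 9 to 13 higher and 0 to 1 lower in sgKMT2B, 6 to 14 that differed between sgKDM5C and sgKDM6A, 4 to 9 between sgKDM5C and sgKMT2B, and 9 to 11 between sgKDM6A and sgKMT2B. With only the groups compared, 5 members were lower in sgKDM6A. The single decrease in sgKMT2B, MX1, became 0 with that fit, with a minimum mean of 1 CPM, with DESeq2 and with thinned libraries, since MX1 had no adjusted p in any of these 4. Thinning also left 5 members that differed between sgKDM5C and sgKMT2B. The cause of the other changes was not tested. Samples with the same replicate number did not deviate together in every pair of groups (positive in 4 of 6), so the numbers were not read as pairs. With a replicate block, 13 members were higher and 0 lower in sgKDM5C, 5 higher and 8 lower in sgKDM6A, 13 higher and 1 lower in sgKMT2B, and 13, 11 and 11 differed between sgKDM5C and sgKDM6A, sgKDM5C and sgKMT2B, and sgKDM6A and sgKMT2B.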

Other observations

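Some other interferon-pathway genes, chosen after their values were seen, also separated the knockouts. The calls in this section were likewise not checked in the alternative settings. PARP10, a mono-ADP-ribosyltransferase, had 10.1 and 11.8 CPM in sgKDM5C, 1.7 and 1.43 in sgKDM6A, 7.27 and 6.15 in sgKMT2B, and 4.38 and 4.81 in WT, so that only sgKDM6A lay below WT. Its log2 change was 1.25 ± 0.21 in sgKDM5C (adjusted p = 0.00134) and -1.55 ± 0.24 in sgKDM6A (adjusted p = 0.000482). IKBKE, a kinase related to TBK1, had 5.97 and 6.77 CPM in sgKDM5C, 1.9 and 1.39 in sgKDM6A, 4.22 and 3.94 in sgKMT2B, and 3.47 and 2.92 in WT. Its change was 0.99 ± 0.25 in sgKDM5C (adjusted p = 0.0126) and -0.97 ± 0.27 in sgKDM6A (adjusted p = 0.0176). BATF2, an interferon-inducible transcription factor, had 2.59 and 2.16 CPM in sgKDM5C, 1.31 and 0.679 in sgKDM6A, 5.26 and 5.36 in sgKMT2B, and 1.69 and 2.53 in WT. It rose in sgKMT2B (1.35 ± 0.33, adjusted p = 0.00813) and fell in sgKDM6A (-1.07 ± 0.37, adjusted p = 0.0442). All 3 were lower in sgKDM6A than in sgKMT2B (adjusted p = 2.15e-05, 0.00234 and 0.00019).

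SAMHD1, which depletes nucleotides and blocks retroviruses, rose in every knockout. It had 91.4 and 74.1 CPM in sgKDM5C, 95.1 and 84.3 in sgKDM6A, 80.4 and 69.3 in sgKMT2B, and 50.6 and 59.3 in WT, and its changes were 0.59 ± 0.13, 0.71 ± 0.13 and 0.45 ± 0.13 (adjusted p = 0.00659, 0.00169 and 0.0219).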
